A study of Mus musculus with 9 samples.

Results

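A set of 40 genes of epidermal adhesion and barrier function were followed in melanocyte stem cells, the pigment cell precursors of the hair follicle, sorted from mouse skin. The genes were chosen by name with earlier results of these data known. Shares set beside those of all genes therefore describe the list and do not test it. The members each have 1 row in the deposited table and make up 40 of the 55359 genes listed. They comprise 10 desmosome genes, 6 genes of basement membrane anchorage, 17 cornified envelope and barrier genes, 3 further cell-cell junction genes and 4 regulators. RNA was sequenced from 9 libraries, 3 from vehicle-treated mice, 3 from mice given 5 Gy of ionizing radiation (IR) and 3 from mice given DMBA, a chemical carcinogen of the polycyclic hydrocarbon class. All 9 libraries, controls included, carry the Dct-H2B-GFP KI/+ genotype, a single knock-in copy in which the melanocyte lineage gene Dct drives a fluorescent histone. The labels give no age, sex, DMBA dose, route or time after treatment, and no sorting gate. Nor do they name a vehicle or a sham treatment for the irradiated mice. They do not say that the replicates came from separate animals, so the spread behind each p-value is that between libraries and may be technical.

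Desmosomes join neighbouring epithelial cells: desmogleins and desmocollins bridge the gap between cells, and plakoglobin, plakophilins and desmoplakin tie them to keratin filaments. Hemidesmosomes anchor basal keratinocytes to laminin-332 in the basement membrane through integrin α6β4. As keratinocytes differentiate outwards they build the cornified envelope, in which transglutaminases crosslink precursors such as involucrin and loricrin, and proteases later release the dead cells. These genes are chiefly known from keratinocytes, while E-cadherin also holds melanocytes to keratinocytes in the epidermis.

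Depth ran from 6938406 to 8156905 counts per library. The labelled cell type was checked against its markers: 10 melanocyte genes summed to between 1625 and 2281 FPKM (counts scaled to exonic length and library total), and Dct alone to 516 ± 5.81 FPKM (SD, n = 3) with vehicle. Keratinocyte markers were also present in every library. A sum of 7 basal keratinocyte genes was 1156, 957.7 and 1437 FPKM with vehicle, 2442, 476.2 and 809.1 after IR and 1647, 2562 and 2518 after DMBA, in replicate order. A sum of 6 suprabasal genes was 920.9, 835.8 and 993.6 FPKM with vehicle, 2476, 382.4 and 1072 after IR and 1919, 2907 and 2186 after DMBA. Immune, fibroblast, endothelial and Merkel cell marker sums did not exceed 4.28 FPKM in any library. A sum of 8 hair follicle keratinocyte genes ran from 35.64 FPKM in the second IR library to 384.1 in the first. In bulk RNA, fewer cells of a type and less RNA per cell cannot be told apart, so the member values below describe the sorted population as a whole.

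A promoter window from RefSeq (build GRCm38.p6) was available for 22 of the 40 members. The windows of 4 members are shown, from the cornified envelope (Casp14 and Ivl), the desmosome (Dsp) and the regulators (Sfn). In each the 3 DMBA libraries lay above the 3 vehicle libraries. That order held in 23 of the 40 members, so it does not single these 4 out. Each window holds the 250 bases before the annotated start, 5′ to 3′ on the gene's strand: chr10:78718294-78718543 (minus strand) for Casp14, chr3:92573736-92573985 (minus strand) for Ivl, chr13:38151044-38151293 (plus strand) for Dsp and chr4:133602169-133602418 (minus strand) for Sfn. Capitals mark matches on either strand to 4 motifs. The first is TGANTCA, the AP-1 motif. The second is AACCNGTT, a grainyhead-like motif. The next is GCGTG, the core bound by the aryl hydrocarbon receptor, the sensor of compounds such as DMBA. The last is the TATA box, searched for with the letters TATAAA.
Casp14: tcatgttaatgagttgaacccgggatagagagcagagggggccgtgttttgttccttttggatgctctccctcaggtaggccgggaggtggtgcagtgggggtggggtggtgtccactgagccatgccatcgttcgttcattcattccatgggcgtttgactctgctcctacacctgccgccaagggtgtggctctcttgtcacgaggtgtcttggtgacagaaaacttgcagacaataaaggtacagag
Ivl: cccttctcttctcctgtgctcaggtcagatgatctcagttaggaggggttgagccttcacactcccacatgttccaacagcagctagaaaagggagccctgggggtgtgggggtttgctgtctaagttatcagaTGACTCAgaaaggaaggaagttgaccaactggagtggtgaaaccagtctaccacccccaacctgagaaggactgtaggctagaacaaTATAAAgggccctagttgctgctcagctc
Dsp: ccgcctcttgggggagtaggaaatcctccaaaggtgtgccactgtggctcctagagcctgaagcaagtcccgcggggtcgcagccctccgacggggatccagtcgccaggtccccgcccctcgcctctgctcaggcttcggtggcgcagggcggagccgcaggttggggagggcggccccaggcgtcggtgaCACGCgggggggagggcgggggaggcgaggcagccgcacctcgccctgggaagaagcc
Sfn: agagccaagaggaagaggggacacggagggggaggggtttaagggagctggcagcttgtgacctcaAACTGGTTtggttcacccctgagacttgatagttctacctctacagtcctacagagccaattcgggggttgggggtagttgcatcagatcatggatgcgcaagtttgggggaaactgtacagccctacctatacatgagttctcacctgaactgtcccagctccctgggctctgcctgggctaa
The Ivl window held an AP-1 match 116 to 110 bases before the start and a TATA box 29 to 24 bases before it. The Dsp window held the receptor core, on the minus strand, 58 to 54 bases before the start. The Sfn window held the grainyhead-like motif 184 to 177 bases before the start, and the Casp14 window held none of these letters. Over the 22 members with a window, TGANTCA stood in 6 (27.3%), namely Ivl, Lor, Flg, Flg2, Sbsn and Cldn4, against 7.82% of 27025 genes with a window. The receptor core stood in 4 of 22 (18.2%) against 30.9% of genes, the TATA box in 5 (22.7%) against 14.3%, and the grainyhead-like motif in 1 (4.55%) against 2%. A match describes the letters only, and its use in these cells was not measured.

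Desmosome genes gave the highest summed level of the 5 roles, and desmoplakin (Dsp), the plaque protein that binds keratin filaments, was the highest single member among them. Dsp stood at 138.8, 121.7 and 186.94 FPKM with vehicle, at 366.46, 63.19 and 144.91 after IR, and at 258.12, 361.44 and 271.6 after DMBA. Each DMBA library lay above each vehicle library, while the IR libraries lay on both sides of them. Plakoglobin (Jup), which links desmosomal cadherins to the plaque, ran from 35.74 to 39.25 FPKM with vehicle, stood at 77.78, 25.21 and 37.32 after IR, and at 53.82, 82.13 and 71.21 after DMBA. Plakophilin 3 (Pkp3), a plaque stabiliser, stood at 11.93, 12.39 and 15.32 FPKM with vehicle, at 24.74, 4.61 and 8.74 after IR, and at 21.92, 37.55 and 32.92 after DMBA. The vehicle and DMBA groups did not overlap for either gene. The cadherins Dsc3 and Dsg1a averaged 45.42 ± 7.97 and 25.71 ± 8.70 FPKM with vehicle and 85.82 ± 19.78 and 54.27 ± 13.24 after DMBA (SD, n = 3). Dsc2 was near the limit of detection, at no more than 0.73 FPKM in any library. Dsg1a and Dsg1b are near-identical copies, so how the authors' counting divided reads between them is uncertain.

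The anchorage genes split into 2 kinds of profile. Integrin β4 (Itgb4), the hemidesmosome receptor subunit, stood at 15.27, 10.3 and 13.83 FPKM with vehicle, at 31.87, 4.32 and 11.21 after IR, and at 18.64, 25.37 and 27.92 after DMBA. Integrin α3 (Itga3), a laminin receptor subunit outside hemidesmosomes, stood at 6.68, 4.92 and 6.1 FPKM with vehicle, at 10.45, 1.33 and 2.92 after IR, and at 7.55, 8.97 and 10.95 after DMBA. The β4 partner α6 (Itga6) stood at 15.69, 12.12 and 16.77 FPKM with vehicle, at 26.58, 9.45 and 15.11 after IR, and at 17.44, 25.44 and 22.47 after DMBA. For all 3 subunits the DMBA libraries lay above the vehicle libraries. For the α6 and β4 subunits the highest and the lowest of the 9 libraries were both IR libraries. Dystonin (Dst), a large cytoskeletal linker with an epithelial hemidesmosome form and other forms in nerve and muscle, instead stayed between 54.15 and 67.3 FPKM over all 9 libraries. The laminin α3 chain (Lama3) stayed between 37.85 and 49.97 FPKM. The laminin β3 chain (Lamb3), which joins α3 in laminin-332, ran from 3.3 FPKM in the second IR library to 13.93 in the second DMBA library.

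Among cornified envelope and barrier genes, periplakin (Ppl), a plakin that scaffolds the envelope, had the highest mean level. It stood at 30.43, 35.53 and 42.81 FPKM with vehicle, at 86.08, 7.29 and 30.32 after IR, and at 60.96, 95.56 and 92.81 after DMBA. Caspase-14 (Casp14), a protease of cornification that acts in filaggrin breakdown, stood at 1.28, 2.33 and 2.26 FPKM with vehicle, at 7.77, 3.24 and 3.54 after IR, and at 7.23, 10.82 and 7.47 after DMBA. Casp14 was the sole member for which all libraries of both treated groups lay above all vehicle libraries. For IR alone that order held in 7.35% of all genes tested and for DMBA alone in 8.28%, and the joint share was not computed. Both orders use the same 3 vehicle libraries, in which Casp14 had 25, 42 and 38 counts. Elovl4, an elongase that makes the very long fatty acids of barrier ceramides, stood at 7.29, 10.16 and 10.33 FPKM with vehicle, at 26.45, 6.29 and 13.01 after IR, and at 15.7, 70.19 and 20.67 after DMBA. Its DMBA mean of 35.52 ± 30.13 FPKM (SD, n = 3) rests largely on the second library. Klk5, a serine protease that loosens corneocytes, stood at 4.59, 2.08 and 2.77 FPKM with vehicle, at 16.37, 1.47 and 10.88 after IR, and at 12.08, 23.39 and 8.31 after DMBA. Spink5, which encodes an inhibitor of that protease, stood at 4.71, 19.62 and 7.57 FPKM with vehicle, at 41.73, 0.27 and 10.12 after IR, and at 20.75, 37.73 and 17.8 after DMBA.

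Within the vehicle group, the late cornified genes Flg2, Hrnr and Lor, picked after seeing values, were highest in the second library. That library was strictly the highest of its group for 12 of the 40 members and strictly the lowest for 19. Filaggrin-2 (Flg2), a precursor of the outermost layers, had 38, 1273 and 128 counts in vehicle libraries 1 to 3, or 0.22, 8.11 and 0.87 FPKM. Hornerin (Hrnr), a related repeat protein, had 25, 226 and 4 counts there, and loricrin (Lor), the major envelope protein, 2, 63 and 0. The second vehicle library was the highest of all 9 for Lor and Hrnr, and was second to the first DMBA library, at 10.37 FPKM, for Flg2. Filaggrin itself (Flg) did not exceed 0.66 FPKM in any library, and reads from these repeat genes may be divided uncertainly. Flg did not share the order, with 10, 4 and 10 counts in vehicle libraries 1 to 3. Nor did the transglutaminase genes Tgm1, with 40, 1 and 6 counts there, and Tgm3, with 22, 0 and 7.

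**Figure D1:**
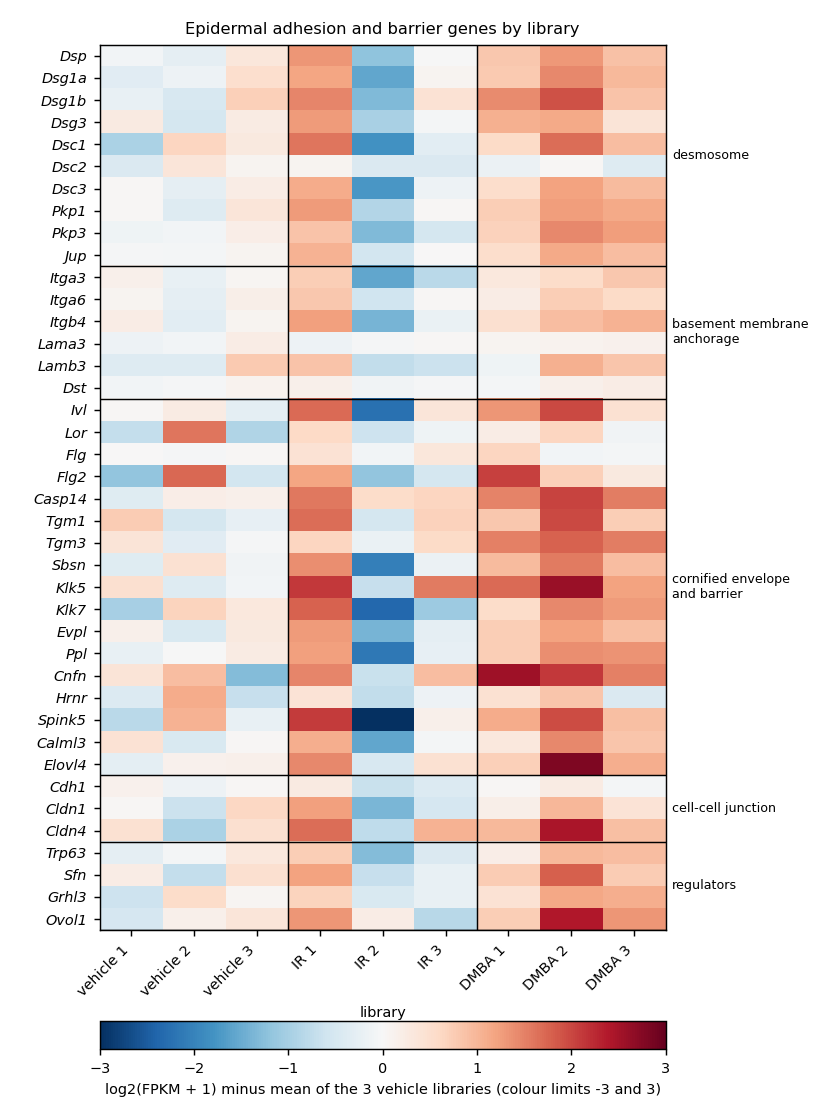
Colour shows log2(FPKM + 1) minus the mean of the 3 vehicle libraries for each of the 40 genes (rows, by role) in each of the 9 libraries (columns). The first IR library and the DMBA libraries are mostly red and the second IR library mostly blue. The rows of Dst and Lama3 stay pale although these genes are well detected.

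E-cadherin (Cdh1), the adherens junction cadherin, was the highest of the 3 other junction genes. It stood at 94.08, 76.64 and 87.76 FPKM with vehicle, at 104.25, 53.85 and 64.54 after IR, and at 87.75, 101.26 and 81.96 after DMBA, with all 3 groups overlapping. The tight junction gene Cldn4 stood at 1.82, 0.07 and 1.88 FPKM with vehicle, at 5.54, 0.22 and 3.26 after IR, and at 3.06, 10.21 and 2.86 after DMBA. Cldn1, the main claudin of the epidermal tight junction, spanned 1.87 to 16.27 FPKM, both ends falling in IR libraries.

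Sfn, which encodes 14-3-3σ, an epithelial regulator of cell cycle exit and a p53 target known from human cells, was the highest regulator. It stood at 119.33, 62.14 and 143.5 FPKM with vehicle, at 235.65, 62.43 and 87.84 after IR, and at 174.32, 358.42 and 175.13 after DMBA. Ovol1, a zinc finger repressor of epidermal progenitor growth, stood at 2, 3.76 and 4.52 FPKM with vehicle, at 9.8, 3.99 and 1.42 after IR, and at 6.18, 21.82 and 9.71 after DMBA. The DMBA libraries lay above the vehicle libraries for both genes. Trp63, the master regulator of stratified epithelium, averaged 14.66 ± 3.24 FPKM with vehicle, 13.54 ± 10.17 after IR and 24.77 ± 7.07 after DMBA (SD, n = 3). Grhl3, a grainyhead-like factor of barrier formation, averaged 6.33 ± 2.81, 6.34 ± 3.21 and 12.28 ± 3.41 FPKM in the same order.

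**Figure D2:**
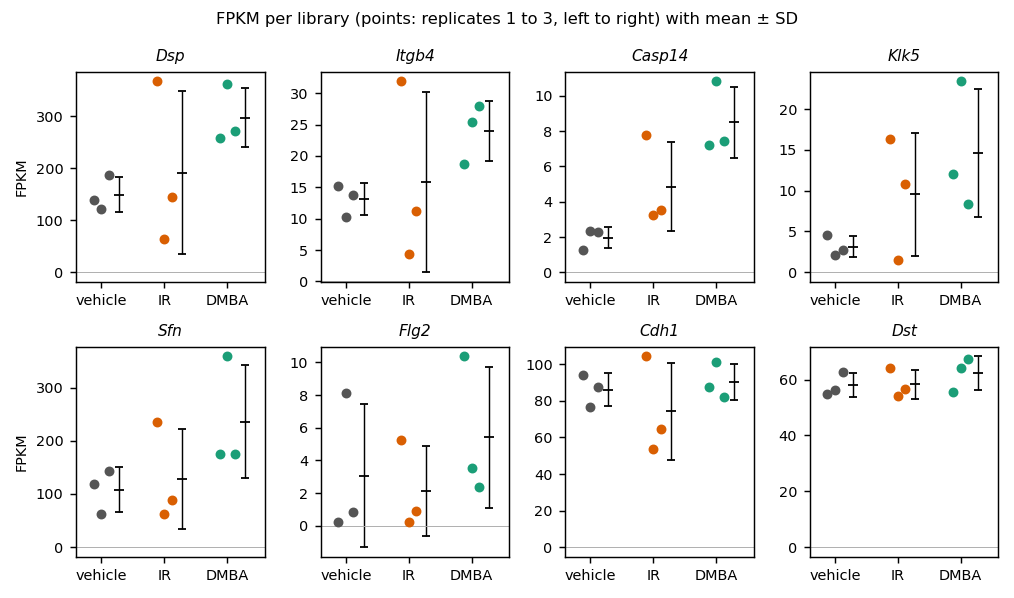
Points give FPKM per library for 8 genes in the vehicle, IR and DMBA groups, with the mean ± SD (n = 3) beside them in black. For Dsp, Itgb4, Casp14, Klk5 and Sfn the 3 DMBA points lie above the 3 vehicle points, for Flg2 the second vehicle library stands at 8.11 FPKM, and Cdh1 and Dst overlap in all groups.

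Among the IR libraries the members moved largely as a block. In the vehicle group, libraries 1 to 3 were strictly the highest for 8, 12 and 20 members. They were strictly the lowest for 17, 19 and 4. The second DMBA library was strictly the highest of its group for 33. The members summed to 807.6, 752 and 988 FPKM with vehicle, 1778, 423.8 and 770.8 after IR, and 1294, 2034 and 1451 after DMBA. Within the IR group, the order of first library highest and second lowest, with the other between, held in 37 of 40 members, against 22.6% of the 16051 genes tested. The first IR library held at least 2 times the level of the second in 29 of the 32 members with more than 3 counts in the latter (90.6%), against 13.5% of 14744 genes. The median ratio between these IR libraries was 6.65 for the members and 0.989 for all genes, and it ran from 0.91 for Lama3 to 155 for Spink5. Dst, at 1.19, and Cdh1, at 1.94, were the other members under 2. The melanocyte markers Dct and Kit had ratios of 0.964 and 0.854, while the basal keratins Krt5 and Krt14 had 6.17 and 5.58 and the suprabasal keratins Krt1 and Krt10 had 5.69 and 6.47. Among all 9 libraries the second DMBA library was the highest for 21 members and the second IR library the lowest for 28.

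The summed desmosome level ranged from 140.4 to 814.5 FPKM. As a share of the summed level of Krt5 and Krt14, it lay at 43.1, 43.6 and 45.9% with vehicle, at 48, 50.6 and 58.5% after IR, and at 51, 48.9 and 42.2% after DMBA. The cornified envelope sum ranged from 37.64 to 486.6 FPKM and lay between 20.5% and 48.2% of Krt1 plus Krt10. Relative to basal keratins measured in the same libraries, the desmosome sum thus spanned a far narrower range than its own level did.

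**Figure D3:**
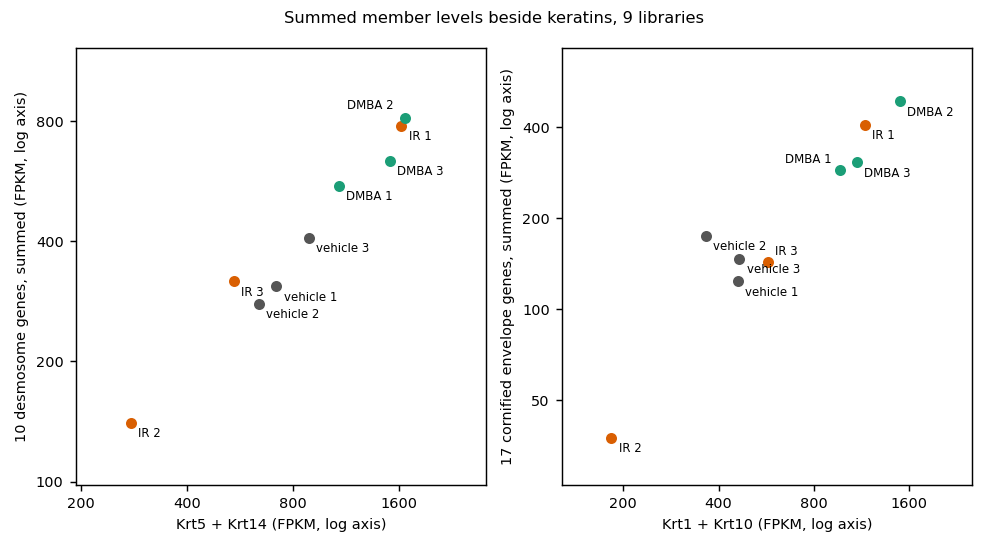
Each point is 1 of the 9 libraries, on log axes in FPKM: at left the sum of 10 desmosome genes against Krt5 plus Krt14, at right the sum of 17 cornified envelope genes against Krt1 plus Krt10. In both panels the second IR library is lowest, at 140.4 and 37.64 FPKM, and the second DMBA library highest, at 814.5 and 486.6 FPKM.

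After DMBA, the members stood higher than with vehicle as a group but none passed the threshold in the fit over all 9 libraries. The median log2 fold change of the 40 was 0.99, against 0.01 for all genes tested, and 38 were positive. In 23 members each DMBA library lay above each vehicle library, against 8.28% of all genes, and in 0 did each lie below (5.31%). By role these were 8 of 10 desmosome, 3 of 6 anchorage, 9 of 17 cornified envelope, 1 of 3 junction genes and 2 of 4 regulators. The 4 members with the smallest p were Casp14 (log2 fold change 2.09 ± 0.49, SE), Klk5 (2.19 ± 0.67), Elovl4 (1.92 ± 0.49) and Ovol1 (1.85 ± 0.56). Among desmosome genes Pkp3 had 1.19 ± 0.39, Pkp1 1.02 ± 0.35, Dsp 0.96 ± 0.37 and Jup 0.86 ± 0.27. Sfn had 1.10 ± 0.39, Ppl 1.16 ± 0.48, Cldn4 2.07 ± 1.02 and Itgb4 0.83 ± 0.42. Tgm3, a transglutaminase with 22, 0 and 7 counts in the vehicle libraries and 84, 109 and 77 after DMBA, had 3.23 ± 1.04. Dst (0.07 ± 0.12), Lama3 (0.06 ± 0.15) and Cdh1 (0.04 ± 0.19) lay near 0.

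By edgeR's quasi-likelihood test, adjusted over all genes by the Benjamini-Hochberg method, 0 of 40 members were called between DMBA and vehicle at an adjusted p under 0.05, beside 6 of 16051 genes (0.0374%). The smallest adjusted p among members was 0.414, for Casp14. At an unadjusted p under 0.05, 19 members were higher, against 3.85% of all genes, and 0 lower (2.85%). The 19 comprised 8 desmosome genes, 8 cornified envelope genes and 3 regulators, with 0 anchorage and 0 junction genes. DESeq2 called 1 member, Casp14, at an adjusted p of 0.0312, beside 0.143% of genes. Limma on log2(FPKM + 1) called 0 members, beside 0.00651% of genes. The edgeR fit takes 1 estimate of the spread from all 3 groups, and for Dsp the SD was 33.8 FPKM with vehicle, 157 after IR and 56.2 after DMBA. With only the 6 vehicle and DMBA libraries in the edgeR fit, 9 of 39 members were called, all higher, beside 0.294% of genes. They were Ppl (adjusted p = 0.00385), Dsp (0.00808), Pkp1 (0.0182), Pkp3 (0.0193), Jup (0.0195), Sbsn (0.0307), Dsc3 (0.0374), Dsg1a (0.0422) and Elovl4 (0.043). Without the first IR library the 8 others gave 3 called members, Jup, Pkp1 and Elovl4, beside 0.146% of genes. With no filter on low counts 21 members were called (0.512% of genes), and without the first and second IR libraries 22 (0.89%), all higher. That last fit keeps 1 IR library, so its spread comes from the vehicle and DMBA groups alone.

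The basal keratinocyte sum was also higher in every DMBA library than in every vehicle library. With the mean log2 level of those 7 markers, among them the hemidesmosome gene Col17a1 and the growth factor binding protein gene Igfbp3, as a covariate, the median of the 40 log2 fold changes was -0.03, with 19 positive, and 0 were called, beside 0.0374% of genes. By role the medians went from 0.99 to 0.08 for desmosome, from 0.56 to -0.10 for anchorage and from 1.23 to -0.07 for cornified envelope genes, and from 1.01 to 0.38 for regulators. In that fit 3 members had an unadjusted edgeR p under 0.05, all higher, beside 2.57% of genes: Casp14 with a log2 fold change of 1.62, Elovl4 with 0.96 and Ovol1 with 1.21. Igfbp3 itself had a log2 fold change of 2.64 ± 0.64 (SE) after DMBA, from 7.28 ± 3.54 to 46.5 ± 6.64 FPKM (SD, n = 3). With the other 6 markers as the covariate, chosen after seeing the data, the median of the 40 was 0.23 with 28 positive, and by role 0.30 for desmosome, 0.03 for anchorage and 0.25 for cornified envelope genes and 0.49 for regulators. Then 0 members were called, beside 0.0498% of genes, and 8 had an unadjusted p under 0.05, all higher, beside 2.82% of genes: Casp14, Elovl4, Ovol1, Klk5, Tgm3, Jup, Pkp1 and Pkp3. Both covariates were themselves higher in each DMBA library than in each vehicle library. With 7 markers the centred means were 0.534, 1.176 and 0.881 after DMBA and -0.209, -0.408 and 0.069 with vehicle. A change with DMBA and one with the keratinocyte level thus cannot be told apart in these fits. With 7 markers the centred means after IR were 0.838, -2.107 and -0.776, the widest spread of the 3 groups. Each gene had 1 slope on the covariate over all 9 libraries, so that slope leans largely on the IR libraries. What lay behind the smaller medians was not tested. Members were named here after their values were seen.

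**Figure D4:**
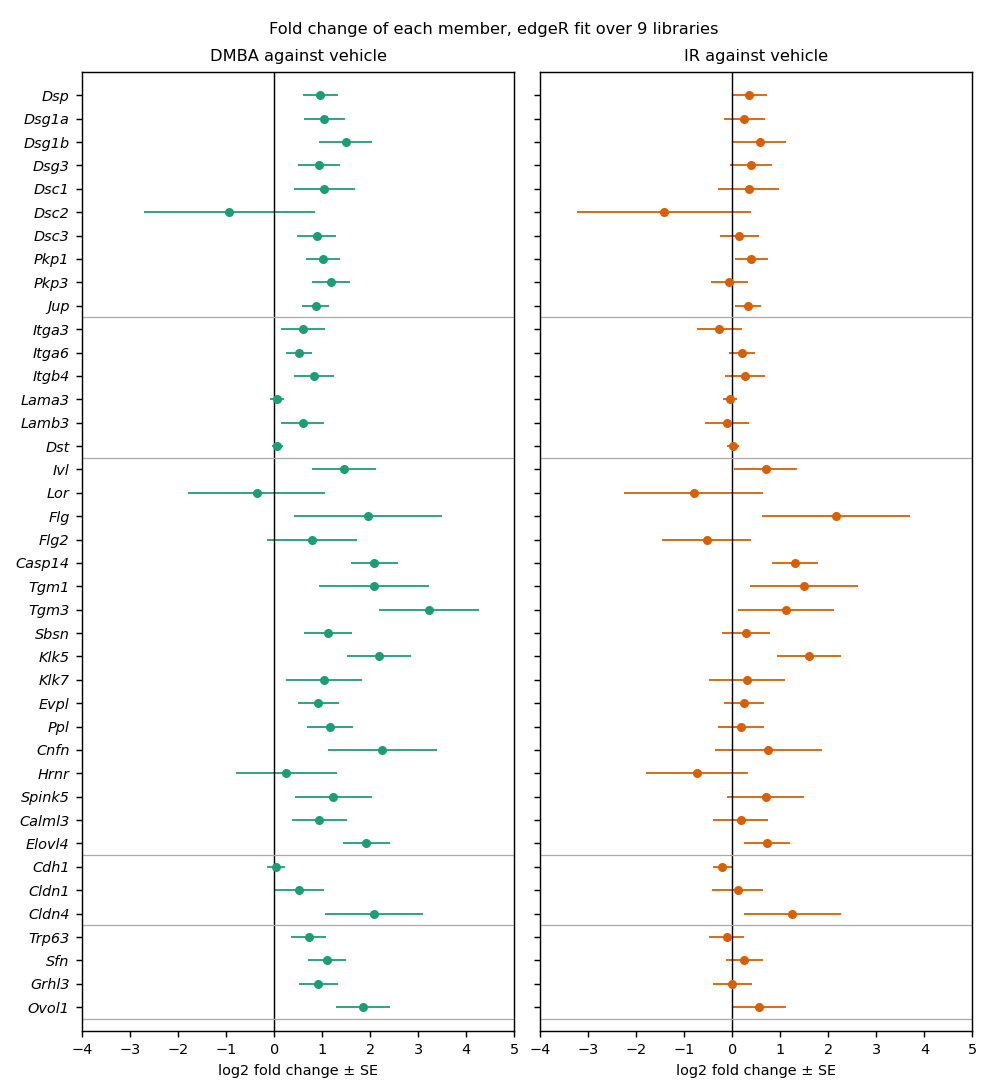
Points give the log2 fold change of each of the 40 genes with its SE (bars), for DMBA against vehicle at left and IR against vehicle at right; both use the same 3 vehicle libraries. At left 38 points lie right of 0 and at right 30 do, and none passed an adjusted p of 0.05.

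After IR, levels overlapped those of vehicle in 39 of 40 members. The median log2 fold change of the 40 was 0.25, against 0.00 for all genes, with 30 positive. Casp14 was the exception in order, with each IR library above each vehicle library and a log2 fold change of 1.31 ± 0.48 (SE). It was 1 of 40 members with that order, against 7.35% of all genes, and 0 had the reverse order (6.42%). Klk5 had 1.60 ± 0.66. With overlapping groups, Dsp had 0.36 ± 0.37, Jup 0.33 ± 0.27, Itga6 0.20 ± 0.26, Ppl 0.18 ± 0.47, Sfn 0.25 ± 0.39 and Cdh1 -0.21 ± 0.20.

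By edgeR, 0 of 40 members were called between IR and vehicle, beside 0.735% of all genes, and the smallest adjusted p was 0.391, for Casp14. At an unadjusted p under 0.05, Casp14 and Klk5 were higher, against 4.93% of genes, and 0 were lower (3.33%). DESeq2 and limma each called 0 members, beside 1.56% and 0.56% of genes. Without the first IR library, the median of the 17 cornified envelope genes went from 0.69 to -0.75 and the log2 fold change of Dsp from 0.36 to -0.50. With the basal keratinocyte covariate, 8 members had an unadjusted edgeR p under 0.05, all higher, beside 5.16% of genes, and 0 were called (1.06% of genes). Their log2 fold changes there were positive in each case: Dsp (0.46), Pkp1 (0.53), Jup (0.46), Dsg1b (0.71), Itga6 (0.35), Casp14 (1.43), Klk5 (1.73) and Elovl4 (0.89). Without Igfbp3 in the covariate 6 of these remained at that p, all but Dsg1b and Itga6, beside 5.15% of genes, and 0 were called (1.05% of genes).

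Between the treatments, levels after IR averaged below those after DMBA, again without a called member. The median log2 fold change of IR against DMBA was -0.74, against -0.02 for all genes, and 1 member, Flg, was positive. Each IR library lay below each DMBA library for 3 members, Tgm3, Cnfn (cornifelin, an envelope component) and Lama3, against 7.85% of genes, and above each for 0 (6.92%). Pkp3 had the smallest p, with a log2 fold change of -1.25 ± 0.39 (SE). Elovl4 had -1.20 ± 0.48, Ovol1 -1.29 ± 0.55, Trp63 -0.84 ± 0.36, Grhl3 -0.92 ± 0.40 and Sfn -0.85 ± 0.39. EdgeR called 0 of 40 members, beside 0.978% of genes, and its smallest adjusted p was 0.226, for Pkp3. At an unadjusted p under 0.05, 7 members were lower, against 3.53% of genes, and 0 higher (4.59%), and 4 of the 7 were the regulators Trp63, Sfn, Grhl3 and Ovol1. DESeq2 and limma each called 0, beside 1.93% and 0.579% of genes. Without the first IR library 20 members were called, all lower after IR, beside 2.46% of genes. With no filter 13 were called (1.2% of genes), and 15 without the first and second IR libraries (1.11%), again all lower. The 15 compare the 1 IR library left, replicate 3, with DMBA and assume that it varies like the other groups. With the keratinocyte covariate the median was 0.32 and 0 were called (0.735% of genes). The marker Igfbp3 in it was itself called between IR and DMBA, with a log2 fold change of -3.10 ± 0.66 (SE) and an adjusted edgeR p of 0.0223. Without that marker in the covariate the median was -0.03 and 0 were called (0.922% of genes). The test of any difference among the 3 groups called 0 members by edgeR, beside 1.07% of genes, with a smallest adjusted p of 0.113, for Casp14. It called 20 without the first IR library (2.27% of genes), 23 with no filter (1.56%) and, with the third IR library alone standing for IR, 24 (1.59%), and DESeq2 called 1 (2.12%).

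Related genes outside the 40 were read in the same fits: 98 further genes of the same structures and of epidermal regulation, of which 80 passed the filter on low counts. Over all 9 libraries edgeR called 0 of them in any comparison. At an unadjusted p below 0.05, DMBA against vehicle had 21 higher (3.85% of all genes) and 0 lower (2.85%), with a median log2 fold change of 0.57. IR against vehicle had 4 higher and 3 lower, shares of the 80 close to those of all genes (4.93% and 3.33%), and IR against DMBA 0 higher (4.59%) and 9 lower (3.53%). With only the vehicle and DMBA libraries in the fit, 4 of 74 were called, all higher, beside 0.294% of genes: the desmosome gene Perp, the hemidesmosome collagen Col17a1, the envelope gene Scel and Krtdap, a gene of differentiating keratinocytes. The stress-responsive factor Cebpb (1.07 ± 0.31, SE) and the epithelial splicing factor Esrp2 (1.42 ± 0.44) had the smallest p after DMBA. Tfap2a, an AP-2 factor active in both epidermis and melanocytes, had the smallest p in IR against vehicle (-0.57 ± 0.17, SE) and in IR against DMBA (-0.64 ± 0.17), with adjusted edgeR p of 0.219 and 0.112. It was lower in each IR library than in each library of the other groups. The next smallest p belonged to the lipase Lipm in IR against vehicle, at 1.71 ± 0.61, and to Esrp2 in IR against DMBA, at -1.29 ± 0.44. Both comparisons with vehicle share the 3 vehicle libraries, so their values are given side by side and not as separate evidence.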

How the data were processed

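The submitters' processing notes list HTSeq 0.6.1, HISAT2 2.0.1, cutadapt 1.9.1 and bcl2fastq 2.17.1.14 with no role. Per the labels' protocols the library kit marks strand. Genome build, annotation and the use of strand in counting were not given in the sources used here. The deposited table holds whole-number counts per gene and library, not normalized, and, per the file headers, FPKM; both are the authors' values. The FPKM were recomputed from counts, exonic length and column totals to within 0.005. Rows without a symbol (1438) took 0.121 to 0.175% of counts and were kept.

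Counts were tested with edgeR 4.0.16 (filterByExpr, TMM, 1 mean per group over 9 libraries, two-sided quasi-likelihood test, Benjamini-Hochberg adjustment over 16051 genes). The pipeline was also run on simulated counts drawn independently for each gene. Those counts hold no shift shared by many genes in 1 library, so that setting was not covered. All 40 members passed the filter. The SE is the log2 fold change divided by the square root of F. Fold changes are by edgeR unless another tool is named. Values by library are given for members with the smallest p or highest FPKM by role and comparison. Lama3, Klk5, Spink5, Flg2, Hrnr, Lor and Tgm3 were added after seeing values. The members and lists were chosen with earlier results of these data known. Alternatives were DESeq2, limma on log2(FPKM + 1), other filters and scaling, a keratinocyte covariate, a replicate block and leaving out libraries.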

Additional observations from a re-analysis of the deposited data

How the results depend on the processing

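IR against vehicle gave 0 called members under every alternative run. For DMBA against vehicle, all calls higher, the count was 21 with no filter on low counts, 9 with only the 2 groups compared, 22 without the first 2 IR libraries (chosen after seeing the data; the lone IR library left is assumed to vary like the other groups) and 1 by DESeq2, and leaving out 1 library at a time gave 0 to 3. For IR against DMBA, all calls lower, it was 13 with no filter and 15 without those IR libraries, and leaving out 1 library gave 0 to 20, the 20 without the first IR library. The test of any difference gave 23, 24, 1 by DESeq2 and 0 to 20 in the same way. The cause of these shifts was not tested.

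Some single genes turned direction, none of them called in the fit in which it turned. Ppl in DMBA against vehicle was among them, though it was called with only the 2 groups compared. In IR against vehicle, with the third IR library alone standing for IR, the log2 fold change was -0.016 for Dsp, -0.012 for Dst, -0.233 for Ppl, -1.247 for Ovol1 and -0.276 for Sfn. For Ppl it was -0.385, -0.423 and -0.265 by limma with a pseudocount of 1, 0.1 and 5. Leaving out 1 library at a time gave -0.223 to 0.625 for Jup, -0.496 to 0.768 for Dsp, -0.25 to 0.483 for Itga6, -0.043 to 0.077 for Dst, -0.925 to 0.673 for Ppl, -0.312 to 1.004 for Ovol1 and -0.502 to 0.571 for Sfn. In DMBA against vehicle, the keratinocyte covariate gave -0.161 for Itgb4, -0.023 for Dst, -0.068 for Ppl and -0.29 for Cdh1, and without Igfbp3 in it -0.006 for Dst and -0.232 for Cdh1. Cdh1 was -0.038 without the second vehicle and second IR libraries (chosen after seeing the data) and -0.075 to 0.11 with 1 library left out. In IR against DMBA the covariate gave 0.38 for Dsp, 0.131 for Itga3, 0.079 for Dst, 0.232 for Ppl, 0.185 for Cdh1 and 0.096 for Sfn, and without Igfbp3 0.066 for Dsp, 0.05 for Dst and 0.091 for Cdh1.

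Libraries sharing a replicate number did not deviate together (correlations of -0.087 to 0.042 over 9 pairs), so the numbers were not read as pairs. With the replicate block 0 members were called in each comparison, and Ppl in IR against vehicle was -0.092. Depth limits Dsc2, Flg, Lor, Tgm1, Tgm3, Hrnr, Cnfn and Cldn4, which had few counts in several libraries. In vehicle libraries 1 to 3, Cldn4 had 27, 1 and 24 counts and Cnfn 13, 20 and 0. Klk5 had 50, 21 and 26 there and 15 in the second IR library.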
